A study of Homo sapiens with 12 samples.

Results

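The genes described here are the moderately and strongly expressed protein-coding genes of a segment of the short arm of chromosome 19, band 19p13.1. They have a mean normalized count above 30 over all 12 libraries. NOTCH3, BST2 and genes whose names start with CYP were left out by the rule. Only 1 listed gene of the segment was left out by name, and its mean count was not above 30. Of the 15601 genes in the table over all libraries, 45 met the rule. The only measured value in the rule was the mean count, and the segment itself had been proposed with earlier results of these data known, so that summaries over the 45 genes are descriptions. A further 13 protein-coding genes of the segment had a mean of 30 or less. Just inside the limit were CC2D1A with a mean of 33.8 and AKAP8L with 37.6, and just outside were TECR with 28.7 and SLC27A1 with 26.1. The first member is YJU2B (start 13731760 on GRCh38), and the last is MAP1S (start 17719242). Of the genes with a mean count above 30, CACNA1A is the nearest before the segment.

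RNA was measured by QuantSeq, which sequences the 3′ ends of polyadenylated transcripts, in SNU449, a human hepatocellular carcinoma cell line, and in SNU449-Axl- cells, in which the receptor tyrosine kinase Axl was removed by CRISPR/Cas9 editing. Each background was present as control cells without drug selection and as cells made resistant to regorafenib (Rego), a multikinase inhibitor used in liver cancer. Selection began at 50% of the IC50 and went up in steps to 2 x IC50. Each of the 4 groups, here called SNU449 control, SNU449-Rego, SNU449-Axl- control and SNU449-Axl- Rego, was 1 cell line with 3 libraries, which the records of the series describe as technical. Therefore, p-values measure only the spread between libraries, and a difference between groups cannot be told apart from a difference between populations. Read depth per library is unknown.

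Chromosome 19 is among the most gene-dense and GC-rich human chromosomes, and its genes have largely unrelated functions. The 45 genes include PRKACA, the catalytic subunit of protein kinase A, TPM4, an actin filament tropomyosin, and DNAJB1, a co-chaperone of heat shock protein 70. Neighbouring genes of unrelated function can shift together when cells differ in the number of copies of a chromosome segment, which is frequent in cancer cell lines. DNA copy number was not measured in these samples, and its part in the results was not tested.

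The transcript level of AXL checked the labels. On the log2(value + 1) scale of the deposited library values, AXL lay between 9.48 and 10.31 in the 6 libraries of SNU449 and between 5.09 and 5.75 in the 6 libraries of SNU449-Axl-. AXL lies on the same chromosome as the segment, on the long arm. The edited position is not given in the sources used here, and the part of the editing itself in the results was not tested. All 9 mesenchymal-like markers were listed, with summed group mean counts of 20554 to 25433, most of them from VIM. Among them, COL1A1 had 181, 640, 1744 and 186 and FN1 had 2606, 548, 480 and 2748 in SNU449 control, SNU449-Rego, SNU449-Axl- control and SNU449-Axl- Rego. Of the hepatocyte, epithelial, leukocyte and endothelial markers, 3 of 10, 3 of 8, 3 of 6 and 0 of 5 were listed, and ALB, HNF4A, CDH1 and EPCAM were not. Of the listed hepatocyte genes, only FGB had group mean counts, between 3.49 and 374 (highest in SNU449-Axl- Rego). The epithelial genes summed to between 1129 and 2088. The leukocyte genes, without PTPRC, which had no group mean counts, summed to between 6.91 and 19.03. The part of these markers in the results was not tested. In bulk RNA, fewer cells of a type and less RNA per cell cannot be told apart.

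The median level of the 45 genes was higher after Rego selection in SNU449 and lower after it in SNU449-Axl- cells. Per library, the median deviation of the 45 genes from their own means over all libraries was -0.29, -0.19 and -0.23 in SNU449 control on the log2 scale. It was 0.14, 0.17 and 0.25 in SNU449-Rego, 0.33, 0.32 and 0.21 in SNU449-Axl- control, and -0.21, -0.31 and -0.16 in SNU449-Axl- Rego. Hence, all 6 libraries of SNU449-Rego and SNU449-Axl- control lay above all 6 libraries of SNU449 control and SNU449-Axl- Rego. Over all genes with a mean count above 30, the same median stayed between -0.0082 and 0.0098.

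**Figure D1:**
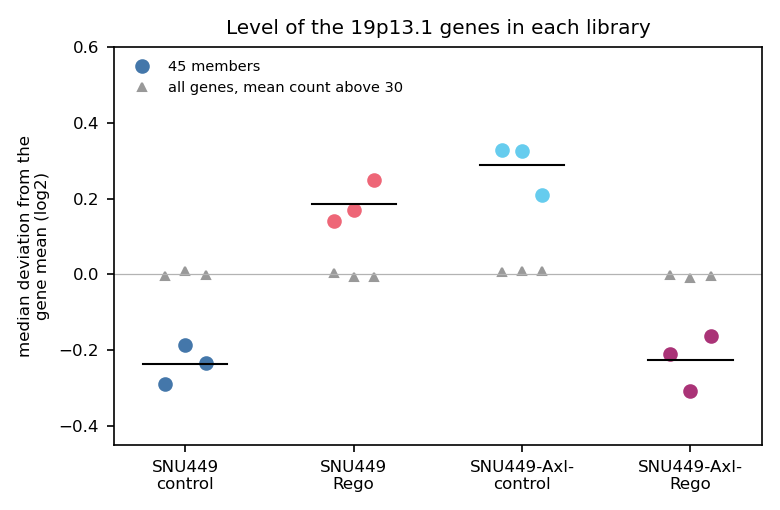
Median deviation of the 45 genes from their gene means (log2, vertical axis) in each of the 12 libraries, by group. Coloured points are libraries, black lines are means of the 3 libraries and grey triangles are the medians of all genes with a mean count above 30. The libraries of SNU449-Rego and SNU449-Axl- control lie between 0.14 and 0.33, those of SNU449 control and SNU449-Axl- Rego between -0.31 and -0.16.

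By group means, 34 of the 45 genes were highest in SNU449-Axl- control and 11 in SNU449-Rego. The lowest mean was in SNU449 control for 27 genes and in SNU449-Axl- Rego for 18. No member was highest in SNU449 control or SNU449-Axl- Rego, and none was lowest in the other groups. The most frequent full order, found in 19 genes, ran from SNU449 control over SNU449-Axl- Rego and SNU449-Rego to SNU449-Axl- control.

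To examine the effect of Axl loss without drug, SNU449-Axl- control was compared with SNU449 control. The difference was above 0 for 44 of the 45 genes, with a median of 0.60 on the log2(value + 1) scale. The median over all genes with a mean count above 30 was 0.0085. With limma, 14 members passed an adjusted p of 0.05, all higher in SNU449-Axl- control, and none passed in the other direction. Of all genes tested, 4.03% passed upward, and 4.97% of those with a mean count above 30. The libraries of both groups did not overlap for 34 members, all higher, against 14.5% of all genes and 17.0% of those with a mean count above 30 in that direction. Among the genes that passed were SAMD1, ADGRL1, DNAJB1, AKAP8, WIZ, RAB8A, SLC35E1, MYO9B, NR2F6, BABAM1, MRPL34, DDA1 and MAP1S. The largest differences were those of ADGRL1, an adhesion G protein-coupled receptor of the latrophilin family (1.20 ± 0.24, SE, adjusted p = 0.0045), NR2F6, an orphan nuclear receptor (1.16 ± 0.18, adjusted p = 0.00057), and MAP1S, a microtubule-associated protein (1.06 ± 0.24, adjusted p = 0.010). The number of genes that passed depended on single libraries. It was 3 without SNU449-Axl- control replicate 2, 5 without SNU449 control replicate 1 or 3, 7 without SNU449-Axl- control replicate 1 and 9 without SNU449-Axl- Rego replicate 1 or 3, while the median stayed between 0.53 and 0.60. Without the replicate number as a block, 25 passed, and 3 passed in the table of this pair of groups alone. Shares of all genes are given for the main fit only, so that counts under alternatives do not set the members apart from other genes. All 4 comparisons are relative to the bulk of genes. When the spike-in RNAs were set equal between libraries instead, all genes shifted by 0.19, 0.33, 0.033 and 0.18 in the order of the comparisons described here, and 25 members passed in this one.

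In Rego-resistant cells, the median went down with Axl loss. The difference between SNU449-Axl- Rego and SNU449-Rego was below 0 for 44 of the 45 genes, with a median of -0.42 and a median over all genes with a mean count above 30 of 0.0016. Of the members, 3 passed with limma, all lower in SNU449-Axl- Rego, against 1.93% of all genes and 2.59% of those with a mean count above 30 in that direction. The libraries did not overlap for 28 members, all lower, against 13.2% of all genes and 16.1% of those with a mean count above 30. The genes that passed were AP1M1, the medium subunit of the AP-1 clathrin adaptor (-1.09 ± 0.20, adjusted p = 0.0038), MRPL34, a protein of the large mitochondrial ribosomal subunit (-0.75, adjusted p = 0.036), and BABAM1, a scaffold of the BRCA1-A complex (-0.64, adjusted p = 0.041). Leaving out SNU449-Rego replicate 1 or 3, SNU449-Axl- control replicate 2 or any library of SNU449-Axl- Rego left 1 gene that passed. It was 5 without SNU449-Axl- control replicate 1 and 6 without SNU449 control replicate 3. Without the block 12 passed, and 9 in the table of this pair. Centred on the spike-in RNAs, 1 passed, the median was -0.093 and 31 members were below 0 and 14 above.

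In SNU449, the median went up with Rego resistance. The difference between SNU449-Rego and SNU449 control was above 0 for 43 genes, with a median of 0.45, against -0.014 over all genes with a mean count above 30. Of the members, 5 passed, all higher in SNU449-Rego, against 4.31% of all genes and 5.28% of those with a mean count above 30 in that direction. The libraries of 33 did not overlap, all higher, against 14.6% and 16.7%. The genes that passed were NR2F6 (0.87 ± 0.18, adjusted p = 0.0047), DDA1, a component of CUL4 ubiquitin ligase complexes (0.76, adjusted p = 0.022), MRPL34 (0.69, adjusted p = 0.035), MAP1S (0.84 ± 0.24, adjusted p = 0.038) and NDUFB7, a subunit of respiratory complex I (0.92 ± 0.27, adjusted p = 0.040). Without SNU449 control replicate 1 or SNU449-Rego replicate 3, 1 gene passed. Without SNU449-Rego replicate 1 or SNU449-Axl- Rego replicate 1 the number was 2, and without SNU449 control replicate 3 it was 3. The fit without the block gave 18 genes, the table of this pair 2 and centring on the spike-in RNAs 2.

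In SNU449-Axl- cells, the median went down with Rego resistance. The difference between SNU449-Axl- Rego and SNU449-Axl- control was below 0 for all 45 genes, down to GTPBP3 at -0.0048, with a median of -0.54, against -0.016 over all genes with a mean count above 30. Of the members, 11 passed, all lower in SNU449-Axl- Rego, against 1.81% of all genes and 2.59% of those with a mean count above 30 in that direction. The libraries of 31 members did not overlap, all lower, against 14.1% and 17.9%. Among the genes that passed were C19orf53, ADGRL1, GIPC1, RAB8A, AP1M1, USE1, NR2F6, BABAM1, MRPL34 and COLGALT1. The largest differences were those of ADGRL1 (-1.35 ± 0.24, adjusted p = 0.0031), COLGALT1, a galactosyltransferase of collagens (-1.17 ± 0.21, adjusted p = 0.0032), and TPM4 (-1.01 ± 0.31, adjusted p = 0.069), of which TPM4 did not pass. Without SNU449-Axl- control replicate 2 or SNU449-Axl- Rego replicate 1 or 2, 2 genes passed. Without SNU449-Axl- Rego replicate 3 the number was 5, without SNU449-Axl- control replicate 1 it was 7, and without the block it was 22. Centred on the spike-in RNAs, 3 passed, the median was -0.37 and 5 members were above 0.

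**Figure D2:**
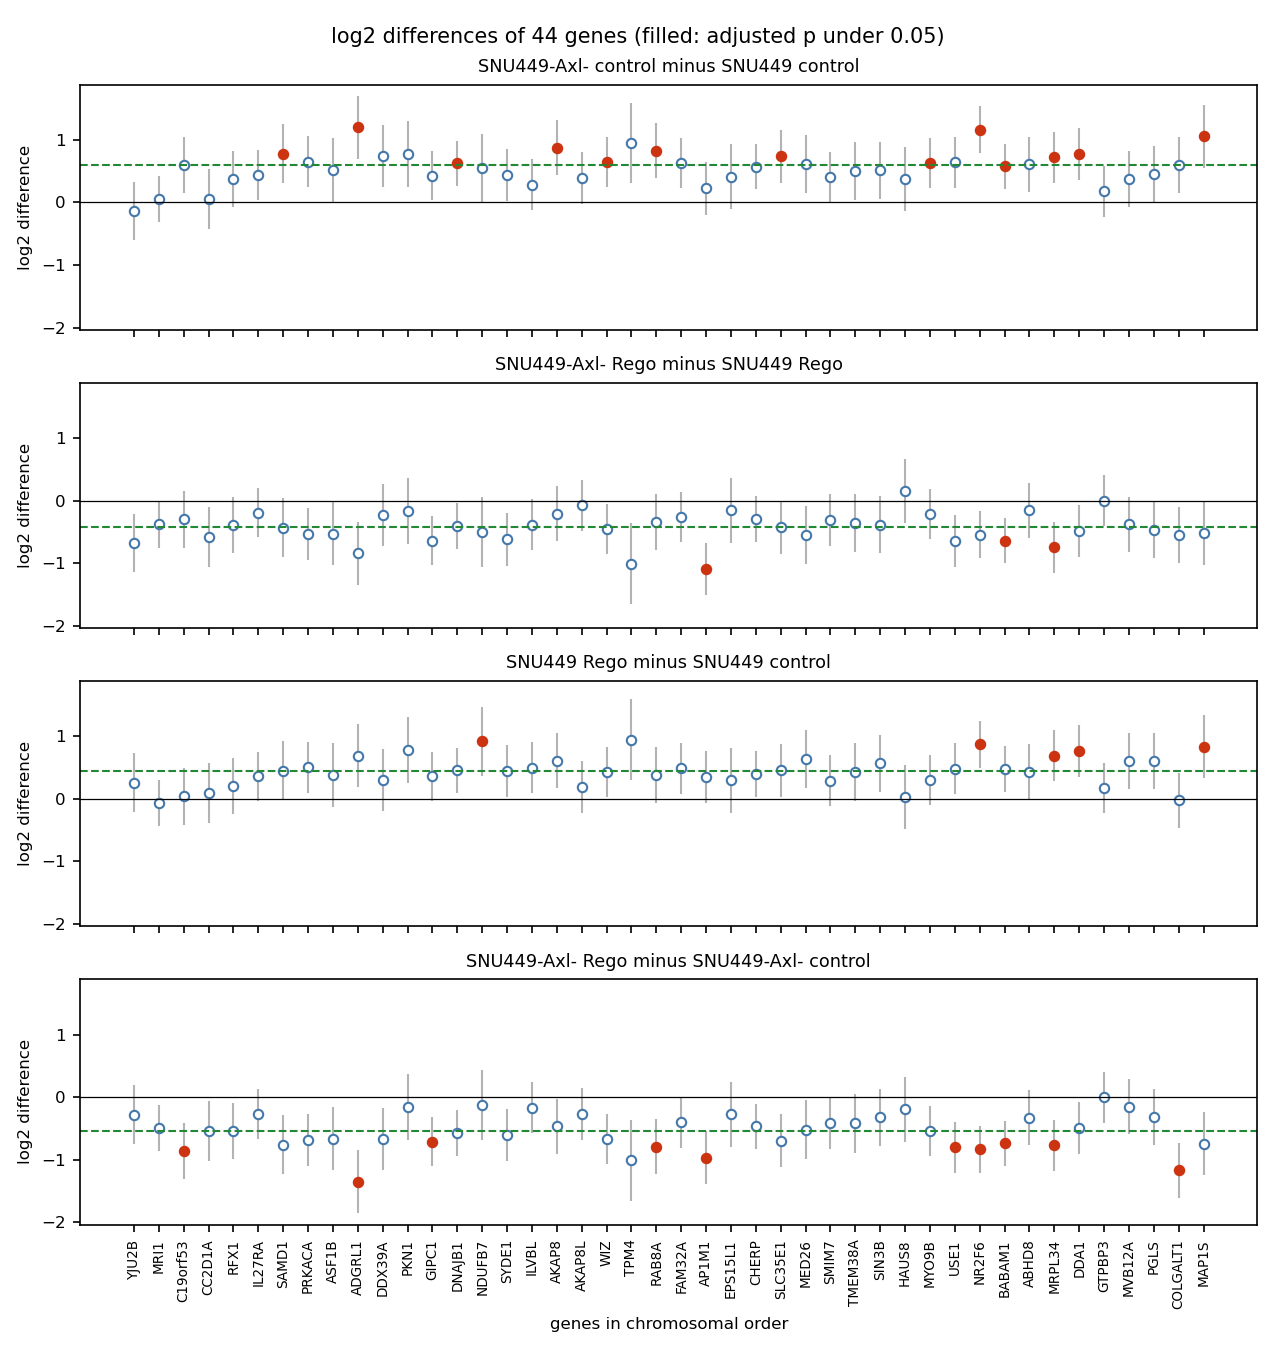
Differences of 44 of the 45 genes on the log2 scale (vertical axes) in the order of their starts along chromosome 19, in the 4 comparisons. Points are limma estimates with 95% intervals, filled points have an adjusted p under 0.05, and green dashed lines are the medians over all 45 genes, 0.60, -0.42, 0.45 and -0.54 from top to bottom. Filled points stand above 0 for Axl loss in control cells and Rego resistance in SNU449, and below 0 in the other panels.

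On a linear scale, the shift was of similar size up and down. Group mean normalized counts were solved from the authors' mean counts of the tables, which gives no error. The median ratio over the 45 genes was 1.65-fold between SNU449-Axl- control and SNU449 control and 1.46-fold between SNU449-Rego and SNU449 control. It was 0.693-fold between SNU449-Axl- Rego and SNU449-Rego and 0.605-fold between SNU449-Axl- Rego and SNU449-Axl- control. TPM4, for example, had solved mean counts of 849 in SNU449 control, 1686 in SNU449-Rego, 1767 in SNU449-Axl- control and 821 in SNU449-Axl- Rego.

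The difference between backgrounds was tested directly as an interaction term, the Rego effect in SNU449 minus that in SNU449-Axl- cells. It was above 0 for all 45 genes, with a median of 1.03. Of the members, 22 passed, all above 0, against 2.95% of all genes and 3.93% of those with a mean count above 30 in that direction. The largest values were those of ADGRL1 (2.04 ± 0.34, adjusted p = 0.0013), TPM4 (1.96 ± 0.43, adjusted p = 0.011), NR2F6 (1.71 ± 0.25, adjusted p = 0.00056), MAP1S (1.58 ± 0.34, adjusted p = 0.0091) and MRPL34 (1.47, adjusted p = 0.0037). The smallest was that of GTPBP3, a mitochondrial tRNA-modifying GTPase (0.18 ± 0.27, adjusted p = 0.79). The number that passed was 12 without SNU449-Axl- Rego replicate 2 and 13 without SNU449-Axl- Rego replicate 1 or SNU449-Axl- control replicate 2, and 9 with centring on the spike-in RNAs. The F test of any difference among the 4 groups passed for 20 members, against 15.9% of all genes and 19.5% of those with a mean count above 30. It passed for 9 without SNU449-Axl- control replicate 2, 10 without SNU449-Axl- Rego replicate 1, 12 without SNU449 control replicate 1 or SNU449-Axl- Rego replicate 2 and 13 without SNU449-Rego replicate 1.

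Neighbours in the order of group levels were also compared, which was decided after the results above were seen. SNU449-Axl- Rego differed from SNU449 control by a median of 0.050 over the 45 genes. AP1M1 alone passed, lower in SNU449-Axl- Rego (-0.74, adjusted p = 0.029), against 2.74% of all genes and 3.12% of those with a mean count above 30 in that direction. SNU449-Axl- control differed from SNU449-Rego by a median of 0.14. With limma, none of the 45 passed (4 at an unadjusted p under 0.05), against 5.59% of all genes and 7.23% of those with a mean count above 30. For TPM4 the difference was 0.0045 with a 95% interval of -0.64 to 0.65.

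The genes whose differences lay nearest to the medians in all 4 comparisons were DNAJB1, WIZ, a zinc finger partner of histone H3 lysine 9 methyltransferases, and CHERP, a protein of calcium homeostasis and splicing. The log2 level of DNAJB1 was 8.33, 8.38 and 8.29 in SNU449 control, 8.81, 8.88 and 8.69 in SNU449-Rego, 8.97, 8.81 and 9.11 in SNU449-Axl- control, and 8.37, 8.41 and 8.38 in SNU449-Axl- Rego. All libraries of SNU449-Rego and SNU449-Axl- control were above 8.69 or at it, and all others at 8.41 or below. Its differences were 0.63 (adjusted p = 0.033), -0.40 (0.21), 0.45 (0.13) and -0.58 (0.067) in the order of the comparisons above. The level of CHERP was 7.16, 7.13 and 7.01 in SNU449 control, 7.56, 7.44 and 7.49 in SNU449-Rego, 7.62, 7.66 and 7.73 in SNU449-Axl- control, and 7.13, 7.24 and 7.24 in SNU449-Axl- Rego. In CHERP, too, the higher groups did not overlap with the lower ones, although none of its pairwise differences passed (adjusted p = 0.052 to 0.39) and its interaction term did (0.87, adjusted p = 0.042).

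Among the genes with the highest mean counts were TPM4 (1281), FAM32A (474), DNAJB1 (389) and NDUFB7 (366). The level of TPM4 was 10.06, 10.13 and 8.90 in SNU449 control, 10.72, 10.30 and 10.91 in SNU449-Rego, 10.05, 10.87 and 11.01 in SNU449-Axl- control, and 9.79, 9.32 and 9.80 in SNU449-Axl- Rego. Replicate 3 of SNU449 control was far below the other libraries of its group, and SNU449-Axl- control overlapped with SNU449 control. The differences of TPM4 were 0.95, -1.01, 0.95 and -1.01 with an SE of 0.31 each, and none passed (adjusted p = 0.068 to 0.072). Without SNU449 control replicate 3, the differences of TPM4 from that group were 0.42 for Axl loss and 0.42 for Rego resistance, and over all libraries left out they lay between 0.42 and 1.34, -1.23 and -0.79, 0.42 and 1.23, and -1.41 and -0.77. NDUFB7 had levels of 7.89, 7.76 and 8.35 in SNU449 control, 8.73, 9.14 and 8.89 in SNU449-Rego, 9.13, 8.57 and 7.93 in SNU449-Axl- control, and 8.13, 8.41 and 8.70 in SNU449-Axl- Rego. Only its libraries of SNU449-Rego were all above those of SNU449 control and of SNU449-Axl- Rego, and the libraries of SNU449-Axl- control spread over most of its range.

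Among the genes with the largest shifts, ADGRL1 had levels of 6.25, 6.21 and 7.08 in SNU449 control, 7.11, 7.35 and 7.15 in SNU449-Rego, 8.04, 7.74 and 7.36 in SNU449-Axl- control, and 6.39, 6.48 and 6.21 in SNU449-Axl- Rego. Replicate 3 of SNU449 control came close to SNU449-Rego, and SNU449-Axl- control was above all other groups. The levels of NR2F6 were 7.58, 7.48 and 7.69 in SNU449 control, 8.52, 8.41 and 8.44 in SNU449-Rego, 8.80, 8.89 and 8.55 in SNU449-Axl- control, and 7.79, 7.92 and 8.02 in SNU449-Axl- Rego. None of its 4 groups overlapped with another, and it passed in all comparisons but Axl loss in Rego-resistant cells (-0.54 ± 0.18, adjusted p = 0.097). MRPL34 was the only gene that passed in all 4, with differences of 0.72, -0.75, 0.69 and -0.77 and adjusted p-values of 0.030 to 0.036. Its gene overlaps ABHD8 on the opposite strand over 14235 bases, as annotated, and the strand setting of the counting is not given in the sources used here. DNAJB1 likewise overlaps TECR over 43307 bases.

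Some genes lay away from the common shift, meaning that the 95% interval of their difference did not hold the median of the 45 genes. This is a description, since the median is made from the genes themselves. For Axl loss in control cells, ADGRL1 and NR2F6 lay above it and CC2D1A, GTPBP3, MRI1 and YJU2B below it. For Axl loss in Rego-resistant cells, GTPBP3 and HAUS8 lay above and AP1M1 below. For Rego resistance in SNU449, NR2F6 lay above and COLGALT1 and MRI1 below. For Rego resistance in SNU449-Axl- cells, GTPBP3 lay above and ADGRL1, AP1M1 and COLGALT1 below. These genes numbered 6, 3, 3 and 4 of the 45 in the 4 comparisons. Some 95% intervals miss a value shared by all genes through the spread between libraries alone. Therefore, a gene named here need not have escaped the shift. No gene passed the test against the direction of the median in any of the 4 comparisons.

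GTPBP3 was the gene with the flattest profile. Its levels were 5.93, 6.29 and 6.36 in SNU449 control, 6.32, 6.41 and 6.36 in SNU449-Rego, 6.58, 6.27 and 6.25 in SNU449-Axl- control, and 6.46, 6.30 and 6.32 in SNU449-Axl- Rego. Its groups overlapped in all 4 comparisons, with differences of 0.18, -0.0012, 0.17 and -0.0048 (SE 0.19 each). HAUS8, a subunit of the augmin complex that nucleates spindle microtubules, had levels of 6.25, 6.74 and 6.48 in SNU449 control, 6.93, 6.52 and 6.09 in SNU449-Rego, 6.55, 6.93 and 7.10 in SNU449-Axl- control, and 6.79, 6.32 and 6.87 in SNU449-Axl- Rego. Its groups overlapped too, and its differences were 0.37, 0.15, 0.026 and -0.20 (SE 0.24 each). The intervals of both genes include 0 in all 4 comparisons, which does not show that they did not move.

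**Figure D3:**
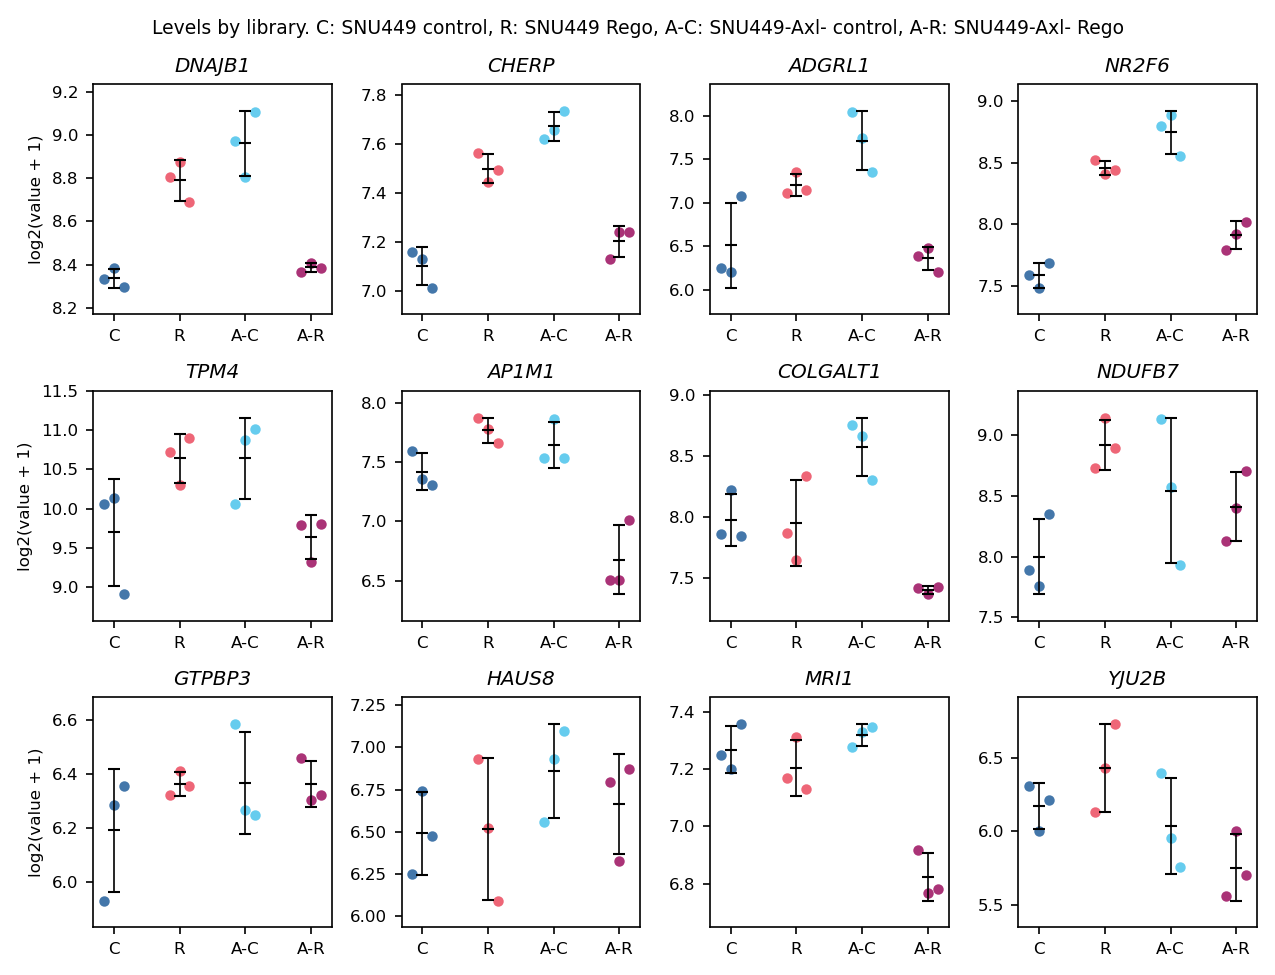
Levels of 12 genes on the log2(value + 1) scale (vertical axes, not starting at 0) by group (C, SNU449 control; R, SNU449-Rego; A-C, SNU449-Axl- control; A-R, SNU449-Axl- Rego). Coloured points are libraries and black bars are the mean with SD (n = 3). DNAJB1, CHERP and NR2F6 separate the middle groups from the outer ones, the groups of GTPBP3 and HAUS8 overlap, and AP1M1 and MRI1 are low in SNU449-Axl- Rego alone.

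Other genes followed the shift in part. AP1M1 had levels of 7.59, 7.36 and 7.30 in SNU449 control, 7.87, 7.77 and 7.66 in SNU449-Rego, 7.53, 7.86 and 7.53 in SNU449-Axl- control, and 6.51, 6.51 and 7.01 in SNU449-Axl- Rego. Its libraries of SNU449-Axl- Rego lay below all others, whereas SNU449-Axl- control overlapped with SNU449 control (0.22, adjusted p = 0.58). MRI1, methylthioribose-1-phosphate isomerase of methionine salvage, had levels of 7.25, 7.20 and 7.36, then 7.17, 7.31 and 7.13, then 7.28, 7.33 and 7.35, and 6.92, 6.77 and 6.78 in the same order of groups. It was also low in SNU449-Axl- Rego alone, although no difference passed (-0.50 ± 0.18, adjusted p = 0.12 for Rego resistance in SNU449-Axl- cells). COLGALT1 had levels of 7.86, 8.22 and 7.85 in SNU449 control, 7.87, 7.65 and 8.34 in SNU449-Rego, 8.76, 8.67 and 8.30 in SNU449-Axl- control, and 7.42, 7.37 and 7.43 in SNU449-Axl- Rego. COLGALT1 was lowest in SNU449-Axl- Rego, and SNU449-Rego overlapped with SNU449 control (-0.026 ± 0.21). YJU2B, related to a splicing factor, was the only gene with a difference below 0 for Axl loss in control cells (-0.14 ± 0.22, adjusted p = 0.79).

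RefSeq promoter windows of a few genes with differing profiles are shown. RefSeq entries (GRCh38.p14) were matched for 35 of the 45 genes, and those of ADGRL1, NR2F6 and AP1M1 were not among them. The 250 bases before the RefSeq start are printed 5′ to 3′ on the strand of the gene. Every GGGCGG and its complement CCGCCC, the GC box bound by Sp1 family factors, is in capitals, where neighbouring matches can overlap. RefSeq starts can differ from the gene coordinates used elsewhere here. By those coordinates, the windows of DNAJB1 and TPM4 lie inside the genes (14514769-14560391 and 16067021-16103002). The windows of HAUS8 and GTPBP3 run into their genes. DNAJB1 (chr19:14529272-14529521, - strand) and TPM4 (chr19:16067288-16067537, + strand) followed the shift. HAUS8 (chr19:17075453-17075702, - strand) and MYO9B (chr19:17075527-17075776, + strand), an unconventional myosin, are transcribed in opposite directions from windows that share 176 bases. GTPBP3 (chr19:17334732-17334981, + strand) had the flattest profile.
DNAJB1: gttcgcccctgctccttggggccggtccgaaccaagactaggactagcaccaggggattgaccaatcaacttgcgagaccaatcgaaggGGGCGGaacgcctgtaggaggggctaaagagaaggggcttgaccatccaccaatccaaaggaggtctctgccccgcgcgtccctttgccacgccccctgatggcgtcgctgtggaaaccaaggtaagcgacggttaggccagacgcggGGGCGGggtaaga
TPM4: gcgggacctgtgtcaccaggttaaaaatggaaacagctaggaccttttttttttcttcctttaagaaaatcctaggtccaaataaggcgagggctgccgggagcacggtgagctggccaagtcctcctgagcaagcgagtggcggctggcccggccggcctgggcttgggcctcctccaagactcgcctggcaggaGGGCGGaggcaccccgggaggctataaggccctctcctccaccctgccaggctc
MYO9B: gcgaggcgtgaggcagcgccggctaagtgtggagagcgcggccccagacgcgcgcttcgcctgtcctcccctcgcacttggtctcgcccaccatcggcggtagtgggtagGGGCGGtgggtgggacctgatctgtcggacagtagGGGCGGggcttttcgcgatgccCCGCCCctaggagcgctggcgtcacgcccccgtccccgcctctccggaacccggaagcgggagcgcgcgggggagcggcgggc
HAUS8: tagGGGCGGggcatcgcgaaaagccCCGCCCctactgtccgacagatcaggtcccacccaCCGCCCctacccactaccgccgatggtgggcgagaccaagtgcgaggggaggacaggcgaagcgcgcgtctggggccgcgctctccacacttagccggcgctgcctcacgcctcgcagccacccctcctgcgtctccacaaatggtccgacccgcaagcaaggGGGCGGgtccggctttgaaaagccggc
GTPBP3: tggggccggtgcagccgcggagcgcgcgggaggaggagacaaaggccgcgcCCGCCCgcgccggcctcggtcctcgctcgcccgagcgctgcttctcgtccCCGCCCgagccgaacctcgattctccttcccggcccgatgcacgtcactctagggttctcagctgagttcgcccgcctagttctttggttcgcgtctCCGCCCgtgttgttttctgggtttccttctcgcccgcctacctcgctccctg

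MYO9B passed for Axl loss in control cells (0.63, adjusted p = 0.048), where its neighbour HAUS8 did not (0.37, adjusted p = 0.41), and this difference between the genes was not tested. For Rego resistance in SNU449-Axl- cells the values were -0.54 and -0.20. The window of HAUS8 holds 4 GC boxes, that of MYO9B 3, that of GTPBP3 3, that of DNAJB1 2 and that of TPM4 1. The 3 of MYO9B lie in the stretch shared with HAUS8 and are the same sites as 3 of those of HAUS8. Of the 35 matched members, 30 held at least 1 (85.7%), against 42.6% of 35116 promoter windows in the reference table. CCAAT, on either strand, was found in 16 of the 35 (45.7%) against 32.0%, and TATAAA in 0 against 10.7%. The median GC content of the windows was 68.4% against 58.0%, and the median number of CpG dinucleotides was 24 against 11. The reference windows were not matched to the members by gene type, expression or chromosome, so that these values do not single out the segment. A match of letters is a description only.

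Grouped by function, the median of each list had the sign of the median over all 45 genes in the 4 comparisons. Nearly all 45 genes had that sign in each comparison, so that this was fixed in advance and says nothing about function. The counts of the lists stand against 4.03%, 1.93%, 4.31% and 1.81% of all genes that passed in these directions. Of the 10 members of transcription and chromatin, all were above 0 for Axl loss in control cells, with a median of 0.63, and 5 passed, among them SAMD1, AKAP8, WIZ and NR2F6. AKAP8 is a nuclear anchoring protein of protein kinase A (0.87, adjusted p = 0.015), and SAMD1 binds unmethylated CpG islands (0.78, adjusted p = 0.041). In Rego-resistant cells all 10 were below 0 with a median of -0.44, and none passed by limma. For Rego resistance, all 10 were above 0 in SNU449 (median 0.51, 1 passed) and all were below 0 in SNU449-Axl- cells (median -0.60, 2 passed).

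Of the 8 members that are signalling enzymes and receptors, 2 passed for Axl loss in control cells, ADGRL1 and MYO9B, with a median of 0.54. PRKACA reached 0.65 (adjusted p = 0.050) there and passed for the interaction term (1.18, adjusted p = 0.015). The medians in the other comparisons were -0.56, 0.40 and -0.58, and ADGRL1 and GIPC1, a PDZ adaptor (-0.71, adjusted p = 0.036), passed in the last. The 7 members of mitochondria and metabolism had medians of 0.54, -0.48, 0.50 and -0.32, with 1, 1, 2 and 2 genes that passed. COLGALT1 was the member of that list below 0 for Rego resistance in SNU449.

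The 9 members of trafficking and cytoskeleton had medians of 0.64, -0.42, 0.44 and -0.74, with 3, 1, 1 and 3 genes that passed. Among them, RAB8A, a small GTPase of exocytosis, rose with Axl loss in control cells (0.83, adjusted p = 0.021) and fell with Rego resistance in SNU449-Axl- cells (-0.79, adjusted p = 0.040). USE1, a SNARE protein of the endoplasmic reticulum, fell in the latter (-0.81, adjusted p = 0.024). The 6 members of protein folding, RNA processing, ubiquitin and DNA repair had medians of 0.63, -0.35, 0.47 and -0.53, with 3, 1, 1 and 1 that passed. BABAM1 was in this list with 0.58 (adjusted p = 0.048), -0.64 (0.041), 0.48 (0.10) and -0.74 (0.019).

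Genes elsewhere whose products work with those of the segment, or are related to them, had medians nearer to 0, a difference that was not tested. The 8 lists held 77 genes in all, here called partners. Among them were BRCA1-A, augmin, AP-1, complex I, protein kinase A and heat shock partners. Other lists held relatives, such as tropomyosins and Krüppel-like relatives of KLF2, a gene of the segment below the mean count limit (14.4). The 74 partners outside chromosome 19 had medians of 0.084, -0.0088, -0.028 and 0.0023 in the 4 comparisons, with 6, 5, 3 and 4 that passed upward and 3, 1, 3 and 4 downward. Of all genes, 4.03%, 2.44%, 4.31% and 2.54% passed upward and 3.43%, 1.93%, 3.5% and 1.81% downward. The medians of single lists, which include the 3 partners on chromosome 19, lay between -0.22 and 0.39, -0.23 and 0.20, -0.18 and 0.16, and -0.49 and 0.26. For example, the 21 complex I partners of NDUFB7, among them NDUFA13 of chromosome 19, had medians of 0.16, -0.025, -0.15 and -0.069. Some partners elsewhere had the signs of the members in all comparisons. The largest such differences for Axl loss in control cells were those of HSPA1A, an inducible heat shock protein 70, with 1.08 (adjusted p = 0.0022), -0.16 (0.73), 0.97 (0.0043) and -0.28 (0.49), and of TPM1, another tropomyosin, on chromosome 15, with differences of 0.95 (adjusted p = 0.0097), -0.65 (0.098), 0.75 (0.037) and -0.85 (0.031), while TPM2 had -0.20, 0.19, -0.19 and 0.20, of which none passed.

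Medians of the same sign were also found outside the segment. The other 218 protein-coding genes of the short arm with a mean count above 30 had medians of 0.42, -0.37, 0.40 and -0.34, against 0.60, -0.42, 0.45 and -0.54 for the 45 genes. The 303 genes of the long arm had medians of 0.22, -0.41, 0.47 and -0.13. In either direction, 31.1%, 6.67%, 11.1% and 24.4% of the 45 genes passed with limma. The shares were 20.6%, 8.26%, 17.0% and 17.4% in the rest of the short arm. On the long arm they were 6.27%, 20.8%, 24.4% and 6.93%. For Axl loss in Rego-resistant cells and Rego resistance in SNU449, both other parts thus had higher shares than the 45 genes. In windows of the same length, those at a distance of -12.3, -8.2, -4.1 and 4.1 Mb and, on the long arm, 24.6, 28.7, 32.8, 36.9 and 41 Mb had the signs of the members in all comparisons. At 28.7, 32.8, 36.9 and 41 Mb, the medians for Axl loss in Rego-resistant cells were -0.60, -0.64, -0.47 and -0.58, against -0.42 in the segment, and at 24.6 Mb that for Rego resistance in SNU449-Axl- cells was -0.012. In the 27 genes at the tip of the short arm, where the chromosome end shortens the window, the medians were 0.45, 0.073, 0.54 and 0.22, so that no median there was below 0. In the windows 16.4 and 20.5 Mb away on the long arm, Rego resistance in SNU449-Axl- cells had medians of 0.40 and 0.30. In contrast, the median for Axl loss in control cells was above 0 in all windows plotted, at 0.15 to 0.60. The same held for Rego resistance in SNU449, at 0.30 to 0.57.

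**Figure D4:**
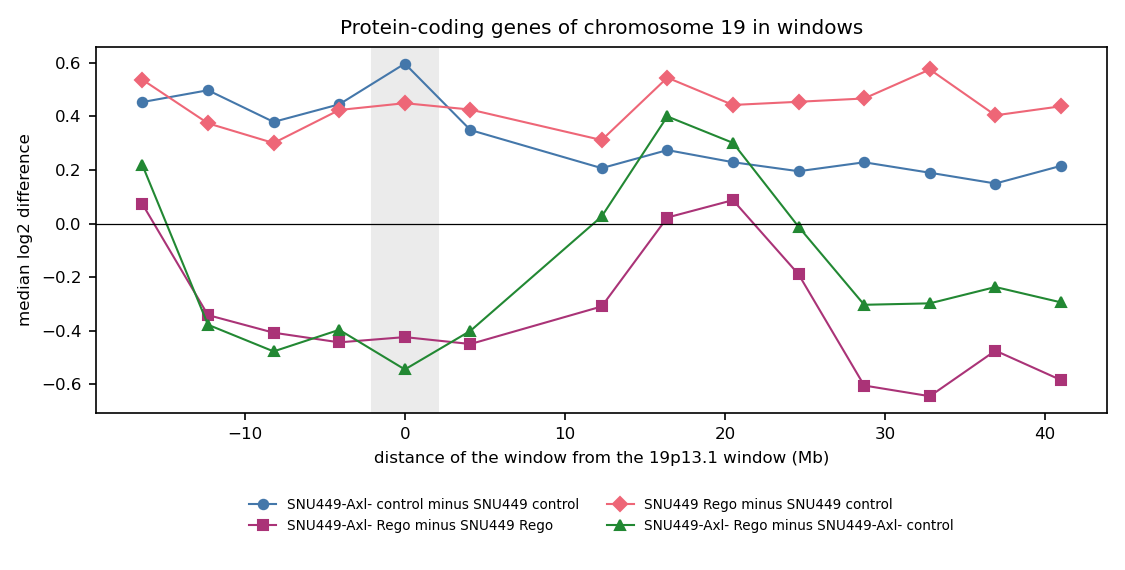
Median difference (log2, vertical axis) of the protein-coding genes of chromosome 19 with a mean count above 30, in windows by distance from the window of the 45 genes (Mb, horizontal axis, grey band), in the 4 comparisons. Windows with fewer than 5 genes were left out and lines join the windows shown. The green line, SNU449-Axl- Rego minus SNU449-Axl- control, is at -0.54 in the band, 0.22 at the tip of the short arm and 0.40 in the window 16.4 Mb away.

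Over whole chromosomes, chromosome 19 had medians of 0.32, -0.38, 0.44 and -0.24. Other chromosomes were also away from 0. For Axl loss in control cells the median was 0.37 on chromosome 3, -0.35 on chromosome 4, -0.38 on chromosome 9 and -0.32 on chromosome 20. For Axl loss in Rego-resistant cells it was 0.25 on chromosome 3 and -0.27 on chromosome 20, and for Rego resistance in SNU449-Axl- cells 0.36 on chromosome 4 and 0.38 on chromosome 9. The transcripts of the 45 genes had a median GC content of 58.5% against 46.5% for all genes with a mean count above 30. The 1300 genes of other chromosomes within the quartiles of the members' GC content had medians of 0.017, -0.081, 0.069 and -0.015. The spread over the members was modest beside the shift. The SD over the 45 genes was 0.27, 0.24, 0.24 and 0.29, against 0.47, 0.42, 0.50 and 0.43 over all genes with a mean count above 30 and a median SE of 0.21 for a member's difference.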

How the data were processed

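The authors trimmed QuantSeq reads with cutadapt 4.0, aligned them to GRCh38 and spike-in sequences with STAR 2.5.3a, counted reads per gene of the GENCODE annotation and ran DESeq2 with a term for the date of preparation. Of the deposited tables, 8 were read, and the authors' fold changes and p-values in them were not used. The deposited library values are scores, read as 2 raised to the variance-stabilized level with the preparation effect removed, rounded. The deposited mean normalized count (baseMean) is a signal that the authors averaged over the libraries of a table. No counts per library were analysed here, so that depth is unknown and no interval from counts is given.

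The 12 libraries fell into 4 groups of 3 by their labels. All 15601 genes other than spike-in RNAs were fitted on log2(value + 1) with limma 3.58.1 in R 4.3.3 (lmFit, contrasts.fit, eBayes with trend, two-sided), with the replicate number as a block, on the assumption that the preparation effect removed by the authors followed it (6 residual degrees of freedom instead of 8). The labels give no preparation date, and the assumption rests on the values alone. The mean deviation of a replicate number over the groups had a median size of 0.0012 to 0.0013, against 0.12 for a library. Genes were called at an adjusted p under 0.05 (Benjamini-Hochberg over all genes). Gene coordinates are those deposited, and for all 45 members they are the same in the GENCODE annotation used as reference. The promoter windows follow RefSeq starts instead.

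Group mean counts were solved by least squares from the mean counts of the tables, with an error of at most 0.099% for a member. The fit was tested on simulated data. The members, the 5 function lists and the 8 partner lists were chosen with earlier results of these data known. Members were named when they had the 3 highest or lowest differences, lay farthest from the median, had the 5 highest mean counts, lay nearest to the medians, or belonged to a function list (up to 4 each). Further genes that passed were named after their values were seen. Of the members, 1 enters all counts and medians but is not reported here by itself. Alternatives were no block, other scalings, no pseudocount, filters on the mean count, the other tables, solved counts, leaving out each library and, chosen after seeing the data, a smooth on GC content.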

Additional observations from a re-analysis of the deposited data

Results flagged for a closer look

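The effect of Rego resistance differed between SNU449 and SNU449-Axl- cells by the interaction term for 22 of the 45 genes. The median difference of the effect over the members was 1.031 on the log2 scale, which was not tested as a median. The largest differences were 2.044 for ADGRL1, 1.956 for TPM4, 1.706 for NR2F6, 1.579 for MAP1S and 1.466 for MRPL34. No group had enough libraries for a check of single libraries that stand apart.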

How the results depend on the processing

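The median over the members kept its direction in all comparisons under every alternative run. Leaving out each library, it lay between 0.531 and 0.601, -0.466 and -0.395, 0.404 and 0.460, and -0.584 and -0.460 in the order of the report, and between 0.932 and 1.05 for the interaction. The genes called then numbered 3 to 17, 1 to 6, 1 to 6, 2 to 15, 12 to 19 for the interaction and 9 to 18 for the F test. With no replicate block, 25, 12, 18 and 22 members were called. The share of all genes called under each alternative is not given, so that these counts do not set the members apart from other genes. Centred on the spike-in RNAs, 25, 1, 2, 3 and, for the interaction, 9 were called, and medians moved to 0.782, -0.0933, -0.366 (Rego resistance in SNU449-Axl- cells) and 0.886 (interaction). In the tables of single pairs, 3, 9 and 2 were called in the first 3 comparisons, with medians of 0.496, -0.306, 0.359 and -0.359. Solved counts gave 0.722, -0.529, 0.548, -0.725 and 1.29. With GC content smoothed out, 1 member was called for Axl loss in Rego-resistant cells and 2 for Rego resistance in SNU449, with medians of 0.369 for the latter and 0.872 for the interaction. Members with a mean count above 100 had medians of -0.691 for Rego resistance in SNU449-Axl- cells and 1.12 for the interaction, and those above 10 had 0.930 for the interaction. The cause was not tested.

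Some differences changed sign. With spike-in centring, values became 0.0478 for YJU2B in control cells, 0.329 for GTPBP3, 0.254 for AKAP8L, 0.0685 for FAM32A and 0.0334 for CHERP for Axl loss in Rego-resistant cells, 0.0074 for COLGALT1 for Rego resistance in SNU449, and 0.174 for GTPBP3, 0.0457 for NDUFB7 and 0.0268 for MVB12A for Rego resistance in SNU449-Axl- cells. With GC content smoothed out, CC2D1A became -0.0229 in control cells, GTPBP3 0.0842 and AKAP8L 0.0196 for Axl loss in Rego-resistant cells, and GTPBP3 0.0255 for Rego resistance in SNU449-Axl- cells. Leaving out each library, the ranges were -0.377 to 0.0501 for YJU2B and -0.149 to 0.203 for CC2D1A in control cells. For Axl loss in Rego-resistant cells they were -0.137 to 0.426 for HAUS8, -0.0640 to 0.0345 for GTPBP3 and -0.164 to 0.0801 for AKAP8L. For Rego resistance they were -0.281 to 0.175 for COLGALT1 and -0.252 to 0.311 for HAUS8 in SNU449, and -0.0843 to 0.138 for GTPBP3 and -0.543 to 0.259 for NDUFB7 in SNU449-Axl- cells.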

Other observations

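The 13 protein-coding genes of the segment with a mean normalized count of 30 or less, among them KLF2, a Krüppel-like transcription factor, had medians of 0.11, -0.038, 0.23 and -0.072 in the 4 comparisons. Of the 13, 2 were called, both for Rego resistance in SNU449, where 4.31% of all genes were called upward and 3.5% downward. Library values are compressed at low counts, so that these differences cannot be set beside those of the members. The 14 listed genes of the segment that do not code for protein had medians of 0.11, 0.029, 0.084 and -0.014, with 0 called by limma. Of these, RPL23AP2, MIR23AHG and EEF1DP1 had a mean count above 30, with medians of -0.36, 0.19, -0.25 and 0.21. RPL23AP2 and EEF1DP1 are pseudogenes, and their reads may be shared with parent genes.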
